A study of Mus musculus with 18 samples.

Results

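The transcripts described here are those of 8 mouse genes of the muscle motor and of its light chain kinases, namely the heavy chains Myh6, Myh7 and Myh7b, the light chains Myl1, Myl2 and Myl3, and the kinases Mylk3 and Mylk4. Every probe set whose platform annotation gives 1 of these symbols and no other was taken, which gave 11 of 45265 probe sets, 8 on chip 430A and 3 on chip 430B of the Affymetrix mouse expression set. All 11 passed the filter on low signals, which left the brighter 60% of each chip for testing. Gene expression was measured in hearts of male mice, with 3 arrays of each chip in each group. Arrays of both chips with the same group and replicate number in their titles were taken as 1 heart, which gives 9 hearts. Over 100 probe sets that both chips share, the deviations from the group mean matched best within the same number in 8 of 9 cases, the exception being before-AAC replicate 2 (r = 0.003), and r was low for before-AAC replicates 1 and 3 as well (0.115 and 0.091). No fit joins the chips by heart, except for the atrial covariate and the omission of hearts. In the hearts with Akt on, AAC, the operation used to put the heart under pressure overload, lay 6 weeks back and the kinase Akt1 had been switched on in its activated myrAkt1 form for the last weeks. The titles give 3 weeks of Akt, the descriptions give 2 weeks, and the age label is 12 weeks. A further group was taken 4 weeks after AAC with no Akt activation named, also with an age label of 12 weeks. The hearts before AAC were taken at 8 weeks of age.

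All 9 mice carried the Tet-myrAkt1 transgene and the driver αMHC-tTA, so the hearts before AAC were those of transgenic mice too. The driver uses the promoter of Myh6 and is active in heart muscle cells. No group was left at 6 weeks without Akt, so Akt and the later time cannot be told apart. No group of the later age was left without the operation, so AAC and age cannot be told apart either. The labels do not say whether atria were included or whether RNA of several mice was pooled, and each p-value measures the spread between these samples. In bulk tissue fewer cells of a type and less RNA per cell cannot be told apart.

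Muscle myosin is a hexamer of a pair of heavy chains, which hydrolyse ATP and pull on actin, and of essential and regulatory light chains wrapped around the neck of each heavy chain. The adult mouse ventricle runs on the fast α heavy chain (Myh6), and the slower β heavy chain (Myh7) is the fetal form that many overloaded rodent hearts take up again. Phosphorylation of the ventricular regulatory light chain Myl2 by the cardiac light chain kinase Mylk3 raises the force of contraction. The introns of Myh6, Myh7 and Myh7b each hold a microRNA of the muscle-specific miR-208 and miR-499 family.

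The arrays of each chip had been brought to 1 level by the authors, with a trimmed mean between 500.19 and 500.22 on chip 430A and of 122.51 on chip 430B. Replicates of a group correlated with r between 0.950 and 0.976 on chip 430A and between 0.881 and 0.939 on chip 430B. The transgene check, the Akt1 probe set 1425711_a_at, gave 2614, 3762 and 6535 intensity units with Akt on, 571, 821 and 917 at 4 weeks after AAC, and 708, 383 and 496 before AAC. Of the other Akt1 probe sets, 1416657_at and 1440950_at were not called in any comparison (log2 0.01 and −0.02 with Akt on against 4 weeks). The probe set 1442759_at did not pass the filter. The 7 cardiac muscle markers were all detected, with summed 430A intensities of 152920 to 187910 with Akt on, 168790 to 181990 at 4 weeks and 195480 to 221440 before AAC. The 7 atrial markers summed to between 7240 and 74503 with Akt on, 6638 and 72462 at 4 weeks, and 5578 and 95836 before AAC, so that each group held hearts with many and with few atrial transcripts. The 3′ to 5′ signal ratio of β-actin, a control on chip 430A that rises as RNA is degraded, was 1.04 to 1.22 with Akt on, 1.14 to 1.21 at 4 weeks and 1.49 to 2.04 before AAC. The 3 hearts before AAC thus had the highest ratios on chip 430A. On chip 430B, which carries Mylk4, Mylk3 and Myh7b, it was 1.11 to 1.26 with Akt on, 1.16 to 1.51 at 4 weeks and 1.45 to 1.86 before AAC, so that the last 2 groups overlapped. A fit with the ratio of each chip as a covariate is given beside the members' calls against before AAC. For other genes it is not given. On chip 430A the ratio split the hearts before AAC from all others, so this fit cannot tell ratio and group apart there. On chip 430B it split them from those with Akt on. No conclusion on RNA quality is drawn from lost calls or changed signs under this fit.

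In the comparison of Akt on against 4 weeks after AAC, limma called 3 of the 11 probe sets, those of Mylk4, Mylk3 and Myh7b, all lower with Akt on. Over all 27083 probe sets tested, 2.54% were called in this comparison, 1.46% lower and 1.08% higher. A probe set is called here, and said to have risen or fallen, where its adjusted p (Benjamini-Hochberg over both chips) is under 0.05. The median log2 difference of the members was −0.20, against 0.02 over all probe sets. At 4 weeks after AAC against before AAC, 3 of the 11 were called, Myl1 and 1 of the 2 Myh6 probe sets higher and Myh7b lower, where 4.43% of all probe sets were called (2.75% higher, 1.68% lower). The members' median was −0.29, against −0.04 over all. Of the 11 probe sets 7 were called with Akt on against before AAC, Myl1 higher and Mylk4, Mylk3, Myh7b, the other Myh6 probe set and 2 of the 3 Myl3 probe sets lower, where 13.4% of all probe sets were called (6.86% higher, 6.51% lower). The members' median was −0.43, against −0.01 over all. The hearts of the 2 groups lay fully apart, which is reported below as not overlapping, in 4 members with Akt on against 4 weeks (3 lower, 1 higher), where 20.6% of all probe sets did so (9.79% lower, 10.8% higher). They lay apart in 7 members at 4 weeks against before AAC (5 lower, 2 higher; all probe sets 29.3%, 16.2% lower and 13.1% higher). They lay apart in 8 members with Akt on against before AAC (7 lower, 1 higher; all probe sets 32.1%, 16.4% lower and 15.7% higher). These comparisons share their hearts in pairs and are not independent of each other.

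**Figure D1:**
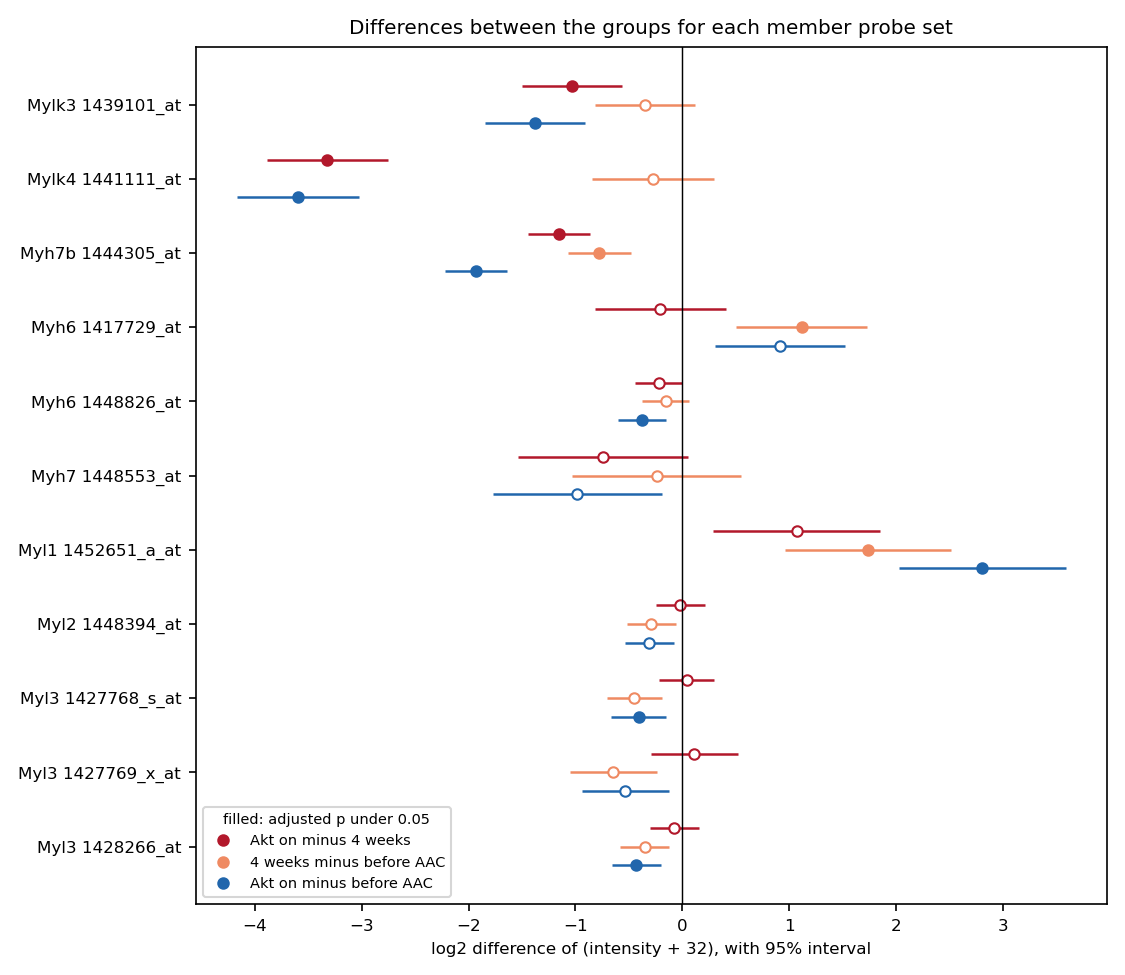
Log2 difference of (intensity + 32) with its 95% interval for each of the 11 probe sets (rows) in the 3 comparisons (colours), with filled points where the adjusted p was under 0.05. Mylk4 stands furthest to the left in both comparisons with Akt on (−3.32 and −3.60), Myl1 is the furthest to the right (2.81 with Akt on against before AAC), and the intervals of Myl2 and Myl3 with Akt on against 4 weeks span 0.

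Of the light chain kinases, Mylk4 showed the largest change of all members. Its gene lies on chromosome 13 (GRCm38.p6, chr13:32700824-32806773, minus strand), and the protein belongs to the myosin light chain kinase family. The probe set 1441111_at gave 253, 117 and 167 intensity units in the 3 hearts with Akt on, against 1453, 1911 and 2900 in the hearts at 4 weeks after AAC and 2536, 2001 and 2841 in those before AAC. All 3 hearts with Akt on lay below the other 6, and the 4-week hearts overlapped with those before AAC. Mylk4 fell 10-fold with Akt on against 4 weeks (log2 −3.32, SE 0.26, adjusted p = 0.00013) and 12.1-fold against before AAC (log2 −3.60, adjusted p = 1.89e-05). By size this was the rank 5 of all 27083 probe sets in the first of these comparisons and the rank 7 in the second. At 4 weeks against before AAC its difference missed the threshold (log2 −0.28, 95% interval −0.84 to 0.29, adjusted p = 0.592). The fold is on the log2(intensity + 32) scale, which understates changes of low signals. The fall with Akt on against 4 weeks passed under all 27 alternatives, with log2 values from −3.79 to −2.82 and adjusted p from 7.01e-05 to 0.00148. It was −3.30 with an atrial marker score as a covariate (adjusted p = 0.00042) and −3.20 with the 3′ to 5′ ratio as a covariate (adjusted p = 0.000583). Against before AAC the latter covariate left −3.15 (adjusted p = 0.158).

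Mylk3, the cardiac myosin light chain kinase that phosphorylates Myl2, lies on chromosome 8 (chr8:85324928-85386340, minus strand). The probe set 1439101_at gave 1334, 791 and 1091 with Akt on, 2288, 1886 and 2383 at 4 weeks and 2065, 3584 and 2907 before AAC. The hearts with Akt on again lay below all others, while the remaining groups overlapped. Mylk3 fell 2.04-fold with Akt on against 4 weeks (log2 −1.03, SE 0.22, adjusted p = 0.0288) and 2.60-fold against before AAC (log2 −1.38, SE 0.22, adjusted p = 0.00248). At 4 weeks against before AAC Mylk3 was not called (log2 −0.35, 95% interval −0.82 to 0.12, adjusted p = 0.376). The call against 4 weeks was less firm than that of Mylk4 and ended under 11 of 27 alternatives (adjusted p from 0.00838 to 0.102 over all of them). It ended without 4-week replicate 1 (adjusted p = 0.0708) or 3 (0.102) and without Akt-on replicate 2 (0.0923) or 3 (0.064), with the replicate number as a block (0.0568) and with the 3′ to 5′ ratio as a covariate (log2 −0.83, adjusted p = 0.0688). The call against before AAC ended under 2 alternatives, with that ratio as a covariate (log2 −0.67, adjusted p = 0.651) and without the 4 hearts richest in atrial transcripts (log2 −1.12, adjusted p = 0.0891).

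The promoters of both kinases are shown because their transcripts were lower with Akt on in the same hearts. Each is the stretch of 250 bases before a RefSeq transcript start on GRCm38.p6. Both printed stretches lie inside the gene spans given above, not before the upstream end of the gene. Capitals mark matches on either strand to 6 motifs. The site of GATA factors was searched as GATA, the E-box as CANNTG, the MCAT site of TEAD factors as CATTCC and the FoxO site as TGTTTAC. The half-site of thyroid hormone and other nuclear receptors was searched as AGGTCA, and the MEF2 site as CTA followed, after any 4 bases, by TAG. Matches of different motifs could overlap.
Mylk4: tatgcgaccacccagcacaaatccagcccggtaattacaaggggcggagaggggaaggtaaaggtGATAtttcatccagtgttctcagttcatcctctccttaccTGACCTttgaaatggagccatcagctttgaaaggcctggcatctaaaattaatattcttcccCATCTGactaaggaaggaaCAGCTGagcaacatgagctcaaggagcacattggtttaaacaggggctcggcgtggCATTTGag
Mylk3: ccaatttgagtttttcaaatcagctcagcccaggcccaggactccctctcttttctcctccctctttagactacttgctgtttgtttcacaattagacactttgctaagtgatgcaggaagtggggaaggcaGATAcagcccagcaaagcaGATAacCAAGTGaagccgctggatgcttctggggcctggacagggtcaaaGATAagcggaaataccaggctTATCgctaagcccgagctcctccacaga
The Mylk4 stretch (chr13:32783965-32784214, minus strand) held 3 E-boxes, 1 GATA and 1 nuclear receptor half-site match, the last read on the opposite strand. The Mylk3 stretch (chr8:85381042-85381291, minus strand, 1 of 2 starts listed) held 4 GATA and 1 E-box match. Neither of these stretches held the letters of FoxO, MCAT or MEF2. The stretch before the other Mylk3 start (chr8:85365325-85365574), not printed here, held 2 GATA matches and 1 MCAT match. Among 32851 mouse promoters of the same length, 66.2% held an E-box, 53.6% a GATA match, 14.0% the half-site, 12.6% MCAT, 3.20% MEF2 and 3.17% FoxO.

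**Figure D2:**
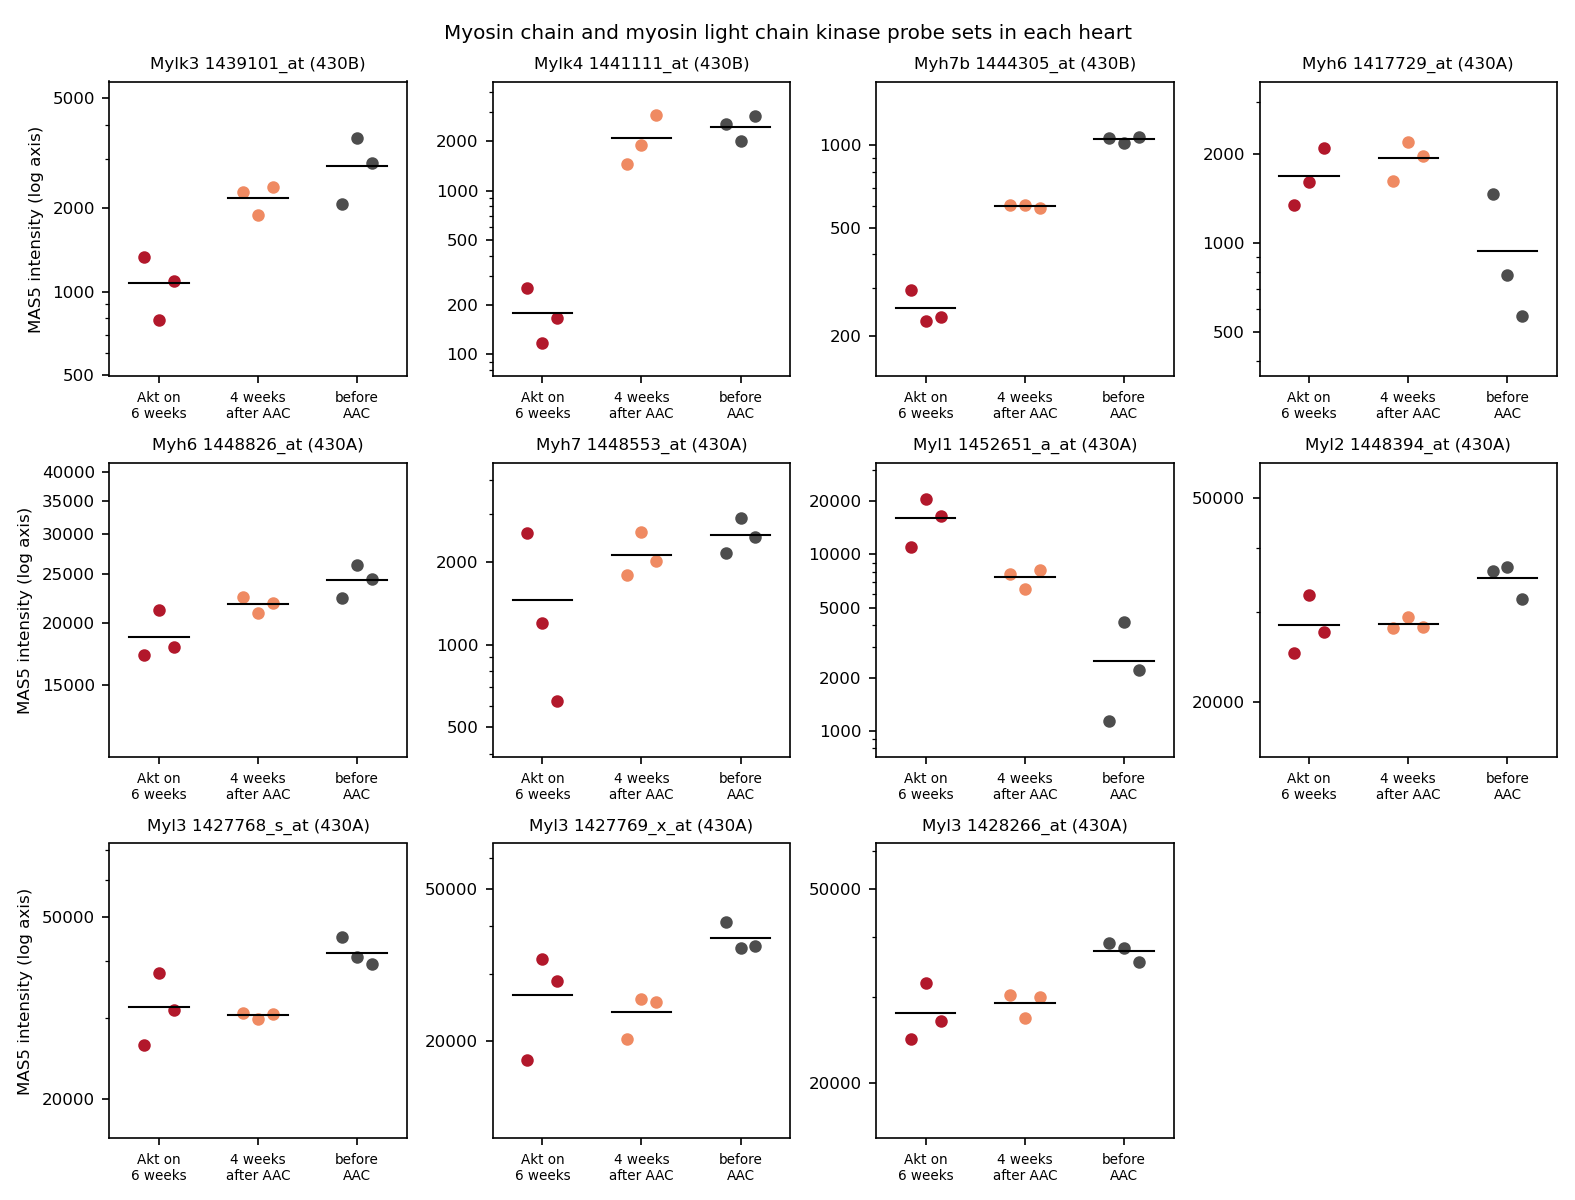
MAS5 intensity (log axis, a scale of its own in each panel) of the 11 probe sets in each heart, with Akt on at the left, 4 weeks after AAC in the middle and before AAC at the right; the line is the group mean (n = 3). Mylk4, Mylk3 and Myh7b are low in the 3 hearts with Akt on (253, 117 and 167 units for Mylk4), and Myl1 is highest there. Myl3 is highest before AAC, and so is Myl2 on average, with overlap between Akt on and before AAC.

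Myh7b, a slow heavy chain gene of muscle whose transcript carries miR-499, was lower at each step. It lies on chromosome 2 (chr2:155611243-155634307, plus strand). The probe set 1444305_at gave 296, 229 and 236 with Akt on, 604, 607 and 589 at 4 weeks and 1062, 1022 and 1070 before AAC. No group overlapped with another, and the spread within the groups was small (SD 36.7, 9.54 and 25.4 units in that order, n = 3 each). Myh7b fell 2.23-fold with Akt on against 4 weeks (log2 −1.15, SE 0.14, adjusted p = 0.00145), 1.71-fold at 4 weeks against before AAC (log2 −0.78, SE 0.14, adjusted p = 0.0143) and 3.81-fold with Akt on against before AAC (log2 −1.93, SE 0.14, adjusted p = 1.89e-05). By p it held the rank 5 of 27083 probe sets in the last comparison. The fall with Akt on against 4 weeks passed under all 27 alternatives (log2 −1.26 to −0.94, adjusted p from 0.000949 to 0.0408). The fall at 4 weeks against before AAC lost its call without before-AAC replicate 2 (adjusted p = 0.0508) or 3 (0.063) and without 4-week replicate 2 (0.0584). With the 3′ to 5′ ratio as a covariate its size was −0.75 (adjusted p = 0.543), and that with Akt on against before AAC was −1.89 (adjusted p = 0.158).

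The Myh7b promoter is shown for the same reason as those of the kinases, with the same capitals.
Myh7b: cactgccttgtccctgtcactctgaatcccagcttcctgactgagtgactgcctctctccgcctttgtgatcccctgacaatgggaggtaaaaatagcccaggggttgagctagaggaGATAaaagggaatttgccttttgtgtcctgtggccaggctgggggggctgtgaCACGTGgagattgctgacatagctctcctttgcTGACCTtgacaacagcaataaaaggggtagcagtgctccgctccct
This stretch (chr2:155610993-155611242, plus strand) held 1 E-box, 1 GATA and 1 half-site match, the last again on the opposite strand. The letters of FoxO, MCAT and MEF2 were not in this window. The mature microRNAs that lie within the 3 heavy chain genes are set side by side because they are processed from the introns of the transcripts measured here. Capitals mark the seed, bases 2 to 8 from the 5′ end, which pairs with targets.
miR-499-5p: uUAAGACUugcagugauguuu
miR-208a-3p: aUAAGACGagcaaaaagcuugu
miR-208b-3p: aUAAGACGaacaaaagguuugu
The sequences are those of RefSeq on GRCm38.p6. miR-499-5p lies within Myh7b (chr2:155622893-155622913, plus strand), miR-208a-3p within Myh6 (chr14:54949072-54949093, minus strand) and miR-208b-3p within Myh7 (chr14:54975710-54975731, minus strand). The 2 miR-208 sequences share their seed and 19 of 22 bases, and the seed of miR-499-5p equals theirs in 6 of 7 positions. The arrays gave values for the host transcripts, and the levels of the microRNAs were not measured here.

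The main heavy chain genes Myh6 and Myh7 stand next to each other on the minus strand of chromosome 14 (chr14:54941921-54968017 and chr14:54970684-54994626). Myh6, the α heavy chain, was read by 2 probe sets whose differences against before AAC had opposite signs. The probe set 1448826_at gave 17246, 21176 and 17890 with Akt on, 22562, 20944 and 21929 at 4 weeks and 22453, 26097 and 24455 before AAC. It fell 1.30-fold with Akt on against before AAC (log2 −0.38, SE 0.10, adjusted p = 0.0311) and no heart of either group overlapped with the other. It was not called with Akt on against 4 weeks (log2 −0.22, adjusted p = 0.297) or at 4 weeks against before AAC (log2 −0.16, adjusted p = 0.411). The call with Akt on ended under 10 of 27 alternatives, among them quantile scaling (log2 −0.11, adjusted p = 0.477) and the 3′ to 5′ ratio as a covariate (log2 −0.22, adjusted p = 0.865). It ended without before-AAC replicate 2 (adjusted p = 0.123) or 3 (0.103) and without Akt-on replicate 1 (0.0649) or 3 (0.0985).

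The probe set 1417729_at of Myh6 gave 1353, 1612 and 2109 with Akt on, 1624, 2205 and 1979 at 4 weeks and 1467, 781 and 567 before AAC. It rose 2.17-fold at 4 weeks against before AAC (log2 1.12, SE 0.28, adjusted p = 0.0455). It missed the threshold with Akt on against before AAC (log2 0.91, adjusted p = 0.0508) and against 4 weeks (log2 −0.20, adjusted p = 0.776). Its values before AAC ran against the β-actin ratio, in that the hearts with ratios of 1.49, 1.95 and 2.04 were those with 1467, 781 and 567 units. The atrial sums of these hearts were 5578, 95836 and 51575 in the same order. The part of RNA quality or of atrial tissue in these values was not tested. With the 3′ to 5′ ratio as a covariate, which cannot be told apart from the group here, the difference at 4 weeks changed sign (log2 −0.50, adjusted p = 0.758, from 0.0223 over the alternatives). The call ended under 15 of 26 alternatives, the atrial covariate among them. These included each one that left out 4-week replicate 1 (adjusted p = 0.0777), 2 (0.144) or 3 (0.0889), before-AAC replicate 2 (0.137) or 3 (0.151), or Akt-on replicate 2 (0.0564). No statement on the α heavy chain can be drawn from the rise of this probe set alone, since the other one did not rise. A pair of probe sets that the annotation gives to both Myh7 and Myh6 is described without a test. The probe set 1448827_s_at gave 3926, 5502 and 5855 with Akt on, 5129, 6259 and 5810 at 4 weeks and 5563, 2268 and 1832 before AAC, in the same order of the hearts before AAC. The probe set 1448554_s_at gave 25269 to 27916 with Akt on, 25624 to 28300 at 4 weeks and 34778 to 42539 before AAC.

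**Figure D3:**
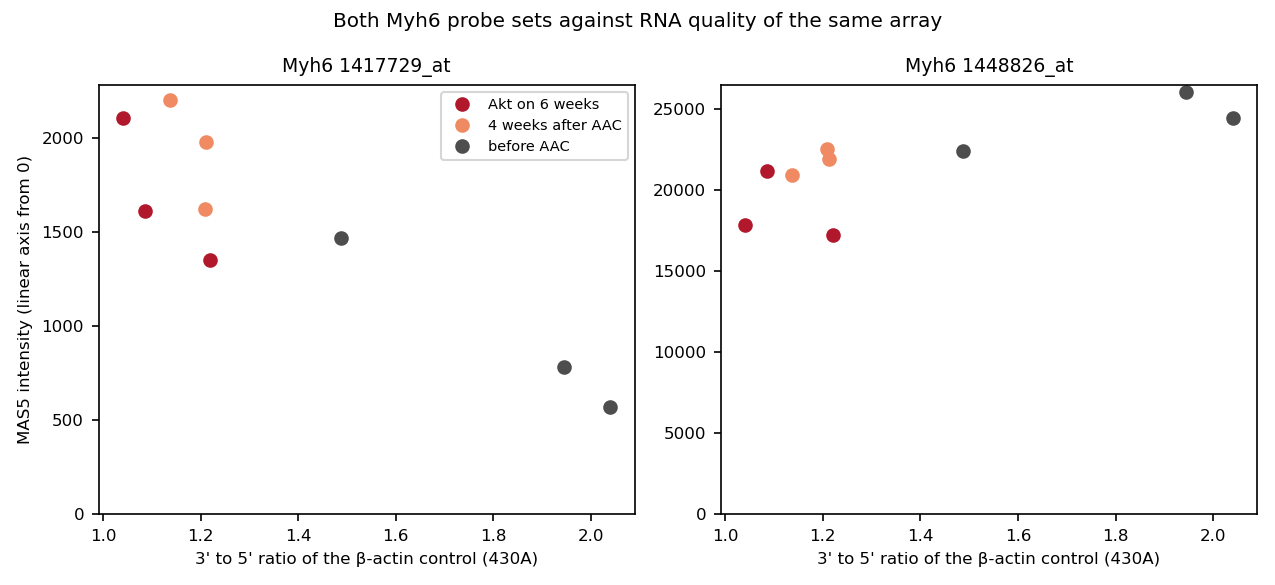
MAS5 intensity of both Myh6 probe sets (vertical axes, from 0) against the 3′ to 5′ ratio of the β-actin control on the same 430A array (horizontal axes, no unit), 1 point per heart. The 3 hearts before AAC lie at the right (ratios 1.49 to 2.04), where 1417729_at falls to 567 units and 1448826_at does not fall.

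Myh7, the β heavy chain and a classic marker of fetal gene expression under overload, did not rise in any comparison. The probe set 1448553_at gave 2559, 1199 and 623 with Akt on, 1802, 2568 and 2014 at 4 weeks and 2164, 2888 and 2479 before AAC. Replicate 1 with Akt on lay among the other groups and replicates 2 and 3 lay below all of them. The difference with Akt on was −0.74 against 4 weeks (95% interval −1.53 to 0.05, adjusted p = 0.33) and −0.98 against before AAC (adjusted p = 0.0987) on the log2 scale. That at 4 weeks against before AAC was −0.24 (95% interval −1.03 to 0.55, adjusted p = 0.759). The values with Akt on depended on single hearts. Akt-on replicate 1 had the highest atrial sum (74503) and the highest Myh7 value of its group. The heart with the highest sum had the lowest Myh7 value at 4 weeks (replicate 1, sum 72462) and the highest before AAC (replicate 2, sum 95836). Without Akt-on replicate 1, the differences of Myh7 with Akt on were called, at −1.25 against 4 weeks (adjusted p = 0.0305) and −1.49 against before AAC (adjusted p = 0.00384). Without Akt-on replicate 3 they were −0.26 (adjusted p = 0.699) and −0.50 (adjusted p = 0.296).

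Myl1, the essential light chain of fast skeletal muscle, was the member that rose most. It lies on chromosome 1 (chr1:66924295-66947932, minus strand). The probe set 1452651_a_at gave 11078, 20701 and 16429 with Akt on, 7705, 6391 and 8205 at 4 weeks and 1140, 4134 and 2229 before AAC. The 3 groups did not overlap, with Akt on highest. Myl1 rose 7.0-fold with Akt on against before AAC (log2 2.81, SE 0.36, adjusted p = 0.00123), rank 20 by size of all probe sets, and 3.33-fold at 4 weeks against before AAC (log2 1.74, SE 0.36, adjusted p = 0.025). All 3 hearts with Akt on lay above the 3 at 4 weeks, which held for 10.8% of all probe sets. The 2.10-fold difference did not pass there (log2 1.07, 95% interval 0.29 to 1.85, adjusted p = 0.147; 0.0435 to 0.329 over its alternatives). The rise at 4 weeks lost its call without before-AAC replicate 1 (adjusted p = 0.053) or 3 (0.0808) and without 4-week replicate 1 (0.0692), 2 (0.0729) or 3 (0.0529). With the 3′ to 5′ ratio as a covariate the sizes were 2.88 at 4 weeks (adjusted p = 0.508) and 4.12 with Akt on (adjusted p = 0.222), both against before AAC.

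The Myl1 promoter upstream of a RefSeq start is shown as that of the member that rose most, with the same capitals.
Myl1: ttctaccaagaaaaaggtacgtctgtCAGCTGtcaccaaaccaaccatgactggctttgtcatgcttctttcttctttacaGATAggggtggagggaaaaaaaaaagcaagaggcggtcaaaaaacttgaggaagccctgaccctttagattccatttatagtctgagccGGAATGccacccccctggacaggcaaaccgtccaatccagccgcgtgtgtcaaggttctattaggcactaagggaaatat
This stretch (chr1:66945057-66945306, minus strand) held 1 E-box, 1 GATA and 1 MCAT match, the last on the opposite strand. It lies inside the gene span given above, not before the upstream end of the gene. The letters of the half-site, FoxO and MEF2 were not in this window.

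Because Myl1 is a gene of skeletal muscle, the other skeletal muscle markers are given beside it. Of 12 marker genes 4 passed the filter, and 8 did not, namely the fast heavy chains Myh1, Myh2 and Myh4 with Actn3, Mylpf, Pvalb, Tnni2 and Tnnt3. The highest intensity of any probe set of these 8 genes in any heart was 175. Casq1, the calcium store protein of skeletal muscle, gave 5205, 5115 and 3690 with Akt on, 2203, 1794 and 1605 at 4 weeks and 1255, 2050 and 1462 before AAC. Casq1 rose with Akt on against 4 weeks (log2 1.30, adjusted p = 0.00584) and against before AAC (log2 1.55, adjusted p = 0.00123). Mybpc2, the fast skeletal myosin binding protein, gave 1665, 2312 and 1963 with Akt on, 1728, 1097 and 847 at 4 weeks and 491, 854 and 652 before AAC. It rose with Akt on against before AAC (log2 1.55, adjusted p = 0.00263). Mybpc2 was not called with Akt on against 4 weeks (log2 0.73, adjusted p = 0.15), where the hearts overlapped. Nor was it called at 4 weeks against before AAC (log2 0.82, adjusted p = 0.0776). Myoz1, a Z-disc protein of fast fibres, gave 335, 320 and 306 with Akt on, 148, 148 and 229 at 4 weeks and 285, 270 and 274 before AAC. It rose with Akt on against 4 weeks (log2 0.79, adjusted p = 0.0377) and was not called at 4 weeks (log2 −0.60, adjusted p = 0.0719) or with Akt on (log2 0.19, adjusted p = 0.522) against before AAC. Atp2a1, the fast calcium pump, gave 411, 261 and 287 with Akt on, 288, 221 and 258 at 4 weeks and 300.2, 345 and 298 before AAC, with no call in any comparison. The 3 marker probe sets past the filter on chip 430A summed to 4283 to 5952 with Akt on, 2091 to 2639 at 4 weeks and 1840 to 2664 before AAC. Myl1, Casq1 and Mybpc2 were thus highest on average with Akt on, while 8 of the 12 markers did not pass the filter in these hearts. The part of skeletal muscle cells in the values of Myl1 was not tested.

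**Figure D4:**
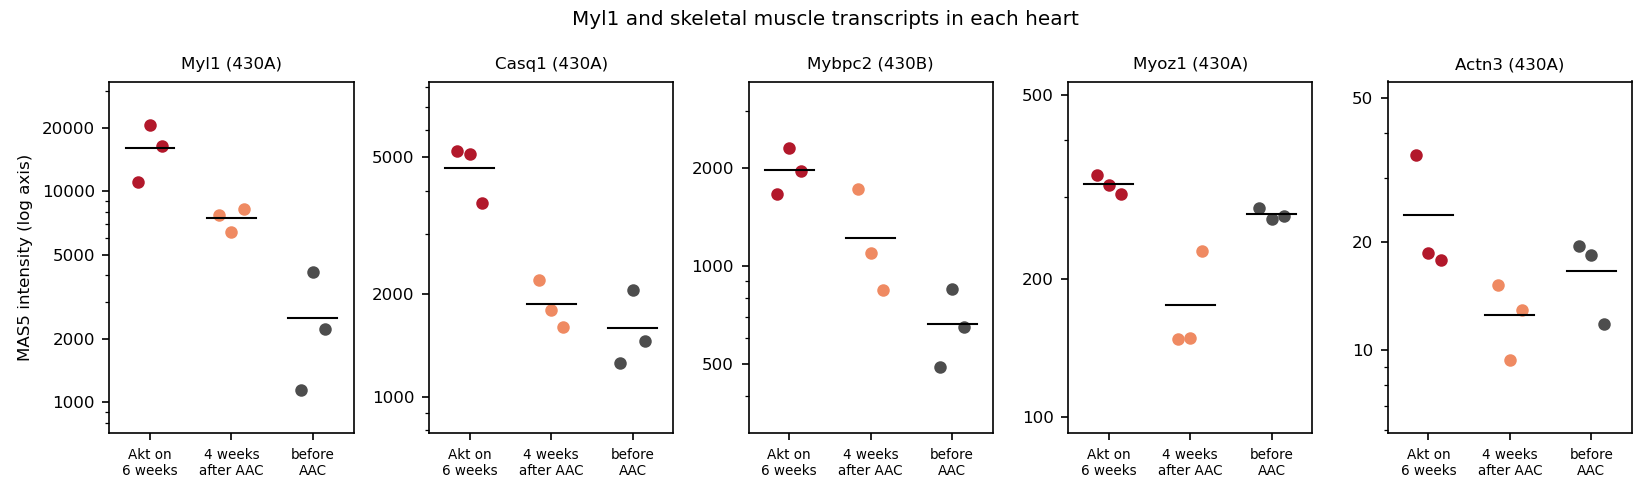
MAS5 intensity (log axis, a scale of its own in each panel) of Myl1, Casq1, Mybpc2, Myoz1 and Actn3 in each heart, Akt on at the left, 4 weeks after AAC in the middle and before AAC at the right; the line is the group mean (n = 3). Myl1, Casq1 and Mybpc2 are highest on average with Akt on, where Mybpc2 overlaps with 4 weeks. Actn3, a marker of fast skeletal fibres, stays below the filter at up to 34.8 units.

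The ventricular light chains changed by far less. Myl2, the ventricular regulatory light chain on chromosome 5 (chr5:122092724-122113473, plus strand), gave 24979, 32379 and 27430 with Akt on, 27962, 29272 and 28077 at 4 weeks and 36091, 36662 and 31842 before AAC. It did not pass with Akt on against 4 weeks (log2 −0.02, 95% interval −0.25 to 0.21, adjusted p = 0.958), at 4 weeks against before AAC (log2 −0.29, adjusted p = 0.132) or with Akt on against before AAC (log2 −0.31, adjusted p = 0.0749). Without Akt-on replicate 2 the last of these was called (log2 −0.41, adjusted p = 0.0215). Quantile scaling turned the differences against before AAC round, to 0.18 at 4 weeks and 0.08 with Akt on, neither of them called.

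Myl3, the ventricular and slow skeletal essential light chain on chromosome 9 (chr9:110763678-110769802, plus strand), was read by 3 probe sets. The probe set 1427768_s_at gave 26262, 37668 and 31261 with Akt on, 30842, 29956 and 30634 at 4 weeks and 45100, 40780 and 39299 before AAC. The probe set 1428266_at gave 24663, 32138 and 26842 with Akt on, 30394, 27265 and 30127 at 4 weeks and 38824, 37828 and 35449 before AAC. The hearts before AAC lay above all others in these 2 probe sets and in 1427769_x_at. Set against before AAC, the hearts with Akt on were lower in 1427768_s_at (log2 −0.41, SE 0.12, adjusted p = 0.0409) and in 1428266_at (log2 −0.43, SE 0.11, adjusted p = 0.0197), while 1427769_x_at did not pass (log2 −0.53, adjusted p = 0.0814). At 4 weeks against before AAC the log2 differences were −0.45, −0.65 and −0.35 for 1427768_s_at, 1427769_x_at and 1428266_at, with no call (adjusted p = 0.053, 0.0698 and 0.0772). Between Akt on and 4 weeks they were 0.04, 0.11 and −0.08 in that order, with no call. Both calls ended with the 3′ to 5′ ratio as a covariate (log2 −0.82 and −0.63, adjusted p = 0.447 and 0.572), under quantile scaling (log2 −0.13 and −0.03, adjusted p = 0.165 and 0.798) and without any 1 of before-AAC replicates 1, 2 and 3, where the adjusted p was 0.134, 0.0957 and 0.0823 for 1427768_s_at and 0.0678, 0.0678 and 0.0505 for 1428266_at. They also ended without Akt-on replicate 3 (0.102 and 0.068), and that of 1427768_s_at without Akt-on replicate 1 (0.0875) or 4-week replicate 1, 2 or 3 (0.0519, 0.061 and 0.0523). The highest 430A signals were themselves larger before AAC, with 99% of the array below 11047 to 11393 units there, against 9427 to 10845 with Akt on and 9947 to 10453 at 4 weeks.

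The remaining myosin genes were followed through lists. A gene counts there as risen or fallen where any of its probe sets was called so. A gene so counted can have other probe sets that were not called. The part of RNA quality in the list calls against before AAC was not tested. Of all probe sets tested, 1.08% rose and 1.46% fell with Akt on against 4 weeks. At 4 weeks against before AAC 2.75% rose and 1.68% fell, and with Akt on against before AAC 6.86% rose and 6.51% fell. Of 19 further heavy and light chain genes 10 were tested, in 17 probe sets. With Akt on against 4 weeks 0 of these genes rose and 1 fell, at 4 weeks against before AAC 1 rose and 1 fell, and with Akt on against before AAC 0 rose and 2 fell. Of the 17 probe sets 0, 2 and 0 rose and 1, 1 and 2 fell in that order. Their median log2 differences were 0.19, −0.32 and −0.20 in that order, against 0.02, −0.04 and −0.01 over all probe sets. Myl12a, a regulatory light chain of nonmuscle and smooth muscle myosin, gave 940, 1033 and 1000 with Akt on in the probe set 1450013_at, 1804, 1893 and 1516 at 4 weeks and 1132, 1204 and 1097 before AAC. It fell with Akt on against 4 weeks (log2 −0.79, adjusted p = 0.00836), where the other Myl12a probe set was not called (log2 −0.36). It rose at 4 weeks against before AAC (log2 0.58, adjusted p = 0.0285), and the other probe set rose at 4 weeks as well (log2 0.43, adjusted p = 0.0366). Myh14, a nonmuscle heavy chain, fell at 4 weeks against before AAC (log2 −0.59, adjusted p = 0.0362) and with Akt on against before AAC (log2 −1.06, adjusted p = 0.00131). Myl6, a light chain of smooth muscle and nonmuscle myosin, fell with Akt on against before AAC (log2 −0.63, adjusted p = 0.0329). The atrial light chains Myl4 (in 1422580_at) and Myl7 had wide ranges within each group. Myl7 gave 15197, 95.7 and 1017 with Akt on, 14712, 728 and 34.1 at 4 weeks and 290, 16251 and 7317 before AAC. The weaker Myl4 probe set 1457126_at gave 371, 162 and 135 with Akt on, 93.0, 94.5 and 80.4 at 4 weeks and 214, 211 and 193 before AAC. Its log2 difference was −0.97 at 4 weeks against before AAC (adjusted p = 0.0719) and 0.96 with Akt on against 4 weeks (adjusted p = 0.103). Neither gene was called.

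Of 15 further kinase, phosphatase and calmodulin genes that set light chain phosphorylation 9 were tested, and limma called none with Akt on against 4 weeks (median log2 of 26 probe sets −0.14). The list had 3 genes that rose and 1 that fell in either comparison with before AAC (medians 0.07 at 4 weeks and −0.02 with Akt on). Of its 26 probe sets 4 rose and 1 fell at 4 weeks, and 3 rose and 2 fell with Akt on. With Akt on against 4 weeks, the smooth muscle light chain kinase Mylk came nearest to a call in 1425505_at (log2 −0.56, adjusted p = 0.0551). At 4 weeks against before AAC the kinase Rock1, which inhibits myosin phosphatase, rose in 1 of 4 probe sets (log2 0.91, adjusted p = 0.0226), with the others at 0.06 to 0.71. Ppp1cb, the catalytic subunit of that phosphatase, rose in 2 of 4 probe sets (log2 0.68 and 0.56, the others −0.33 and −0.21). Ppp1r12c, a targeting subunit, rose in 1 of 2 (log2 1.12, adjusted p = 0.0426, the other −0.23). Mylk fell there (log2 −0.64 in 1425506_at, adjusted p = 0.0377). With Akt on against before AAC, Mylk fell in both probe sets (log2 −0.96 and −0.98, adjusted p = 0.00194 and 0.00269), and Camk2d, the cardiac calmodulin kinase, was called higher in 1 of 5 probe sets (log2 0.92, adjusted p = 0.0361), whose hearts overlapped, with the other 4 at −0.41 to −0.07. Ppp1cb rose in 1 of 4 probe sets (log2 0.54, the others −0.28 to 0.14) and Ppp1r12c in 1 of 2 (log2 1.25, the other −0.47). Of 8 smooth muscle markers, a list that holds Mylk too, 7 were tested. Mylk was the 1 gene of them that fell in either comparison with before AAC. The median log2 of 8 probe sets, those of Mylk among them, was −0.44 at 4 weeks and −0.65 with Akt on. Smtn of this list rose with Akt on against before AAC (log2 0.76, adjusted p = 0.00931). Cnn1 rose with Akt on against 4 weeks (log2 2.04, adjusted p = 0.0496). Against before AAC Cnn1 was not called (log2 −0.78 at 4 weeks and 1.26 with Akt on). The summed 430A intensity of this list was 5917 to 12237 with Akt on, 6164 to 10403 at 4 weeks and 7133 to 11093 before AAC, and its part in the fall of Mylk was not tested.

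Among 12 genes of myosin binding, folding and turnover 11 were tested. The counts of genes that rose and fell were 0 and 2 with Akt on against 4 weeks, 1 and 0 at 4 weeks against before AAC, and 2 and 1 with Akt on against before AAC, with median log2 differences of 0.02, 0.07 and −0.07 over 20 probe sets. Of these 20, the counts that rose and fell were 0 and 3, 1 and 0, and 4 and 2 in that order. The ubiquitin ligase gene Fbxo32 (atrogin-1) fell with Akt on against 4 weeks in 2 of 3 probe sets (log2 −0.78 and −1.04, adjusted p = 0.0268 and 0.0423), while 1435265_at was not called (log2 −0.48, adjusted p = 0.264). Trim54, a muscle RING-finger protein, fell too (log2 −0.56, adjusted p = 0.0209). Smyd1, a methyltransferase and myosin chaperone partner, gave 773, 1948 and 3001 with Akt on in the probe set 1421329_a_at, 1036, 1581 and 1125 at 4 weeks and 428, 267 and 301 before AAC. It rose at 4 weeks against before AAC in that probe set of 5 (log2 1.81, adjusted p = 0.0254, the others −0.28 to 0.56), and in 3 of 5 with Akt on against before AAC (log2 0.81 to 2.24, the others −0.10 and 0.53). Fbxo32 fell in that last comparison in the same 2 probe sets (log2 −1.05 and −1.20, the other −0.40), and Mybpc2, given above, rose.

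Of 29 transcription factors, hormone receptors, deiodinases and cofactors that regulate chain genes 26 were tested, and limma called none with Akt on against 4 weeks. The median log2 differences of their 65 probe sets were −0.01, −0.04 and −0.03 in the order of the comparisons above. Of these 65 probe sets 0, 3 and 6 rose and 0, 0 and 4 fell in the same order. The cardiac factors Gata4 (log2 1.08 in 1418864_at, adjusted p = 0.0321, the other 0.25) and Mef2a (log2 0.91 and 0.86 in 2 of 5 probe sets, the others −0.19 to 0.16) rose at 4 weeks against before AAC. With Akt on against before AAC 5 genes rose, Dio2, the deiodinase that makes active thyroid hormone (log2 1.61 in 1 of 3 probe sets, adjusted p = 0.0111, the others 0.19 and 0.42), Vgll2, a TEAD cofactor of skeletal muscle (log2 1.43, adjusted p = 0.00246), Gata4 in both probe sets, Mef2a in 1 of 5 (the others −0.31 to 0.49) and Tbx5 in 1 of 2 (the other 0.36). The hearts overlapped in the called probe set of Tbx5, which is also an atrial marker here. In the same comparison 3 genes fell, Thra, the thyroid hormone receptor α (log2 −0.54 and −0.68 in 2 of 3 probe sets), Mef2d (log2 −0.61 in 1 of 3, the others 0.15 and 0.18) and Srf (log2 −0.57 in 1 of 2, the other −0.07). Where these lists had no call with Akt on against 4 weeks, 4617 of all 27083 probe sets had an unadjusted p under 0.05 and 688 were called by limma.

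**Figure D5:**
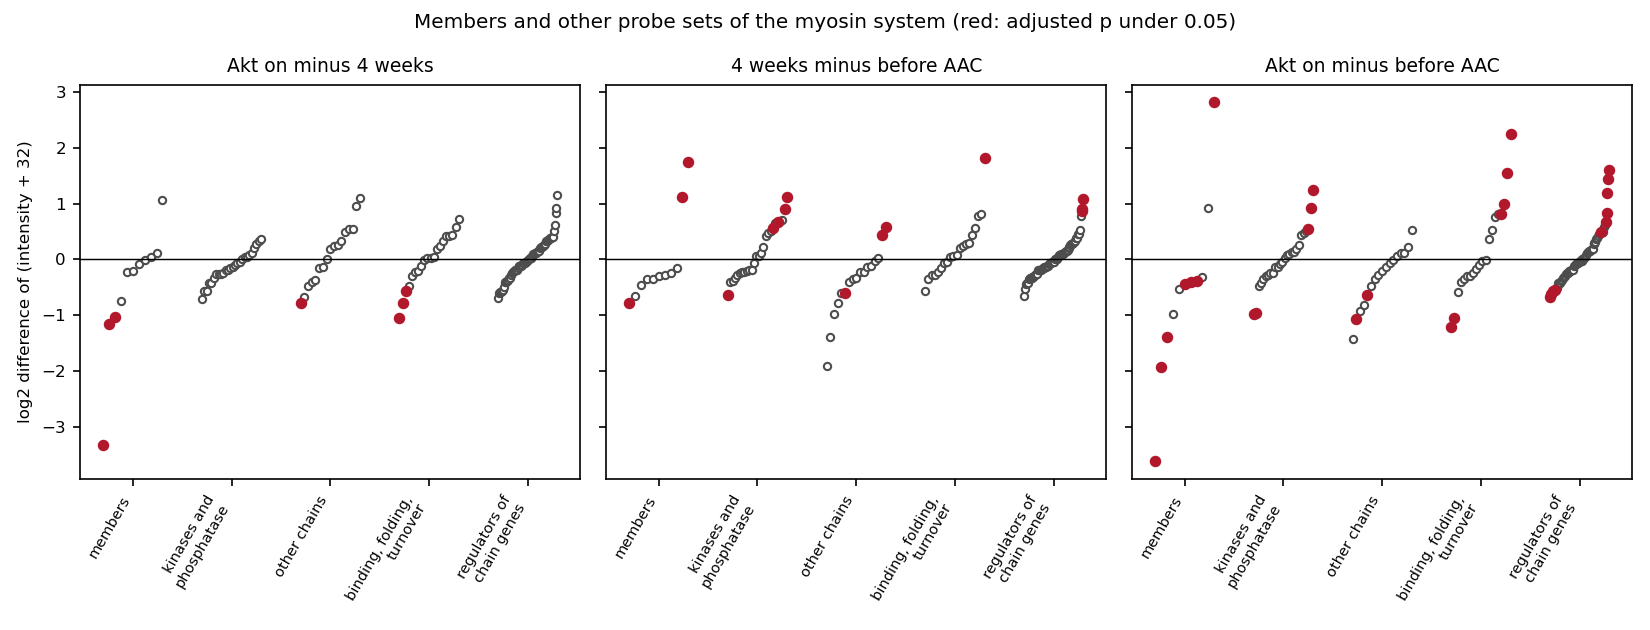
Log2 difference of (intensity + 32) of the members and of 4 lists of further genes of the myosin system (columns, 1 point per probe set, sorted within a column) in the 3 comparisons (panels), in red where the adjusted p was under 0.05. Mylk4 (−3.32 with Akt on against 4 weeks, −3.60 with Akt on against before AAC) is the lowest point of the left and right panels.

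The genes on the same chip whose log2 values ran most like those of a member over the 9 hearts are named as a description. Genes of the other chip were not searched. The 9 points share 3 groups and the arrays, so that any gene that differs between the groups in the same order has a high r. For Mylk4 these were Setd2 (r = 0.982), Lrrc4b (0.980) and the potassium channel subunit Kcnip2 (0.978). Mylk3 ran with the insulin receptor Insr (0.986), Cisd1 (0.978) and Mtus2 (0.970), and Myh7b with Rapgef2 (0.986), Klhl24 (0.974) and Map3k5 (0.968). Myl1 ran with Nudt4 (0.980), Aspn (0.974) and the skeletal actin Acta1 (0.970). Myh6 (1448826_at) ran with Tns2, Tcap and Rps4x (0.966 to 0.968), and Myh7 with Ahsa1, Rab8b and Matr3 (0.932 to 0.951). Of the ventricular light chains Myl2 ran with Xbp1, Cox5a and Slc25a4 (0.961 to 0.974) and Myl3 (1427768_s_at) with Atp5a1, Tpt1 and Mdh1 (0.969 to 0.982).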

How the data were processed

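Per the labels' protocols, total RNA was isolated with the Ultraspec-II reagent and labelled with biotin by standard Affymetrix procedures. Per the submitters' processing notes, the authors made the deposited values with MAS5. Its settings are not given in the sources used here. The deposited values are linear intensities, 1 per probe set. The trimmed mean (2% off each end) of chip 430B was 4.083 times lower than that of chip 430A, so that the pseudocount of 32 weighs there as 130.7 would on chip 430A.

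From these intensities, log2(intensity + 32) was computed, with every array first scaled to its chip's average trimmed mean. The 128 control probe sets were left out and the brighter 60% of each chip was kept, by mean over all arrays (13576 and 13507 probe sets). Each chip was fitted with 1 mean per group in limma 3.58.1 in R 4.3.3 (lmFit and eBayes, trend = TRUE), with two-sided contrasts and Benjamini-Hochberg adjustment over both chips. The script was tested on simulated data. The number of arrays limits the precision, and the median SE of a log2 difference was 0.199. No count-based model was used.

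All 8 symbols of the members matched RefSeq (GRCm38.p6) by Entrez ID, and coordinates, microRNAs and promoters are from RefSeq. Of all probe sets, 936 had several symbols, 9160 none and 35041 only 1. Every member probe set is named. Of the further lists, called probe sets and up to 3 genes with the smallest p per list and comparison may be named. For each member the 3 genes of highest Pearson r on its own chip are named. The members, lists and settings were chosen with earlier results of these data known. The alternatives were other scalings, pseudocounts, filters and variance models, fewer groups in the fit, a replicate block, 1 probe set per gene, adjustment within each chip, chip 430B multiplied up to the level of chip 430A, averaging 4-week replicates 1 and 3 (the description of replicate 3 carries the number 1), an atrial covariate and leaving out each heart. The 3′ to 5′ ratio as a covariate and omission of the 4 hearts richest in atrial transcripts were added after the data had been seen. The replicate numbers recur across groups, but the labels tie them to no shared day or litter.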

Additional observations from a re-analysis of the deposited data

How the results depend on the processing

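The number of members called with Akt on against 4 weeks, 3 of 11, stayed between 2 and 4 under all 27 alternatives, and between 2 and 4 when each heart was left out in turn. At 4 weeks against before AAC, where it was 3, it was 0 to 6 when each heart was left out, 1 with no filter, 5 with only the 2 groups compared in the fit, 6 with adjustment within each chip, 1 with 4-week replicates 1 and 3 averaged, 5 with the atrial covariate, 0 with the 3′ to 5′ ratio as a covariate and 1 without the 4 hearts with most atrial transcripts. With Akt on against before AAC, where it was 7, it was 4 to 9 when each heart was left out, 4 with quantile scaling, 4 with no filter, 4 with no trend, 0 with the 3′ to 5′ ratio as a covariate and 3 without the 4 hearts with most atrial transcripts. With that ratio as a covariate limma called 2 of all 27083 probe sets at 4 weeks and 0 with Akt on against before AAC, where 2009 and 2173 had an unadjusted p under 0.05, among them 6 and 8 of the members. With Akt on against 4 weeks it called 357. Since the ratio went with the group before AAC, the calls lost against that group do not show the part of RNA quality. When each heart was left out, the number of all probe sets called ran from 239 to 642, from 118 to 1799 and from 1696 to 4083 in the 3 comparisons, against 688, 1199 and 3623 with all hearts. At 4 weeks it was 0 members without before-AAC replicate 3 or 4-week replicate 2, where limma called 118 and 134 of all probe sets and 4610 and 4614 had an unadjusted p under 0.05.

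Over all members, comparisons and alternatives, 746 of 882 values kept direction and call, 79 lost their call, 33 gained one and 24 changed sign. The changes of sign were of uncalled values, except for 1 called value of Myh6. With the 3′ to 5′ ratio as a covariate, values against before AAC at 4 weeks were −0.50 for Myh6 1417729_at, 0.87 for Myh7, 0.16 for Mylk3 and 0.042 for Mylk4, those with Akt on were −0.95 for Myh6 1417729_at and 0.30 for Myh7, and Myl3 1427768_s_at was −0.011 with Akt on against 4 weeks. Under quantile scaling the values at 4 weeks against before AAC were 0.18 for Myh6 1448826_at, 0.18 for Myl2, 3e-04 for Myl3 1427768_s_at and 0.11 for Myl3 1428266_at, that with Akt on against before AAC was 0.083 for Myl2, and that with Akt on against 4 weeks was −0.13 for Myl3 1427768_s_at. Without the 4 hearts with most atrial transcripts they were 0.071 for Myh7 and 0.037 for Mylk3 at 4 weeks, and 0.056 for Myl2 and 0.035 for Myl3 1428266_at with Akt on against 4 weeks. That of Myl2 was 0.011 with the atrial covariate. When each heart was left out, Myl2 ran from −0.12 to 0.068, Myl3 1427768_s_at from −0.089 to 0.17, 1427769_x_at from −0.064 to 0.37 and 1428266_at from −0.18 to 0.0071 with Akt on against 4 weeks. The cause of these changes was not tested.

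The replicate numbers did not pair the hearts, since the deviations of same-numbered arrays from their group means correlated with r between −0.239 and 0.143. With the replicate number as a block 2, 2 and 6 members were called in the order of the comparisons above, and 431, 560 and 3006 of all probe sets. The block ended the calls of Mylk3 with Akt on against 4 weeks (adjusted p = 0.0568), of Myh6 1417729_at at 4 weeks (0.0828) and of Myl3 1427768_s_at with Akt on against before AAC (0.0671). Fits without the 4 hearts leave 1 heart before AAC, which is assumed to vary like the others.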
